A study of Mus musculus with 12 samples.

Results

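Gene-trap oocytes that received mRNA for wild type MARF1 (GTWT, 4 libraries) were compared with gene-trap oocytes (GT, 4 libraries), which makes 8 of the 12 libraries of the study. The libraries were assigned from the sample titles. The other 4 libraries, gene-trap oocytes that received mRNA for D272-mutated MARF1 (GTD272), served to show which differences the wild type and the mutated mRNA shared. All 3 groups carry the gene trap in Marf1 and came from C57BL/6 mice aged 3 weeks, primed for 46 h with PMSG (5 IU), a hormone that stimulates follicle growth. Oocytes were fully grown and at the germinal vesicle (GV) stage, the arrest before meiosis resumes, and each library was made from a pool of 80 oocytes. Injected oocytes were kept for 48 h in milrinone, a phosphodiesterase inhibitor that holds the GV arrest. Whether GT oocytes were cultured or received a control RNA is not stated in the labels, so injection, culture and the MARF1 protein cannot be told apart as sources of a GTWT to GT difference. The pools of a group are not said to come from different animals or cultures, and p-values thus reflect only the spread between these pools, which may be technical. The labels also disagree on the material, naming ovaries in one protocol and oocytes in the design.

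MARF1 is a ribonuclease of the oocyte that binds RNA and cuts it through a NYN domain, and female mice without it are infertile because their oocytes do not leave the GV stage. A fully grown GV oocyte has almost stopped transcribing, so its stored mRNAs are thought to change in level mainly through stabilisation and decay. The mRNA of Ppp2cb, a catalytic subunit of protein phosphatase 2A, is a known target of MARF1 in the mouse.

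Marf1 was given first, as a check of the labels. Its FPKM (fragments per kilobase, scaled to the mapped fragments of a library, the unit of all levels here) was 13.5, 24.1, 13.6 and 19.02 in GTWT replicates 1 to 4, 9.73, 9.10, 9.66 and 7.99 in GTD272 and 1.27, 1.71, 1.83 and 1.59 in GT. Every GTWT library lay above every GTD272 library, and GTWT replicate 2 was the highest. Marf1 rose by 2.80 on the log2(FPKM + 1) scale in GTWT against GT (SE 0.16, limma adjusted p = 1.73e-06). Ppp2cb, which the table lists in 1 locus with Ubxn8, had 71.95, 53.3, 79.2 and 73.3 in GTWT, 99.1, 99.9, 108 and 94.8 in GTD272 and 97.01, 108, 109 and 104 in GT, and fell by 0.60 against GT (SE 0.10, adjusted p = 0.00142). Its paralog Ppp2ca was at 235 ± 5.82 in GTWT and 262 ± 10.3 in GT (SD, n = 4 each), a difference of -0.16 that was called but lost after quantile normalization and in the fit without a mean-variance trend.

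The relative depth of the libraries was 66.4% to 84.1% of the deepest one in GTWT, 65.1% to 82.6% in GTD272 and 55.9% to 100% in GT. In each library 11167 to 11364 genes were at 1 FPKM or more. All 15 oocyte markers were measured, of which 3 fell (20%) and 5 rose (33.3%) in GTWT against GT. Over all tested genes these shares were 10.5% and 6.14%. Of markers of other cells, 7 of 11 theca and stroma genes and 7 of 10 blood genes and 2 of 5 endothelial genes were at 0 in all 8 GTWT and GT libraries, and 12 of 15 granulosa and cumulus genes stayed under 1 FPKM. The granulosa list summed to 118 to 128 FPKM in GTWT, 125 to 135 in GTD272 and 141 to 149 in GT. Nr5a2, the highest of the list, was at 100 to 107 in GTWT and 119 to 129 in GT. It made up most of the GTWT and GT sums and fell by 0.27 (limma adjusted p = 0.00135). The Kit ligand gene Kitl, at 10.3 to 15.6 in GTWT and 12.4 to 15.6 in GT, was not called. Nor was the aromatase gene Cyp19a1, at 6.47 to 6.79 in GTWT and 3.36 to 6.88 in GT. The endothelial list summed to 14.3 to 16.5 FPKM in GTWT, 13.03 to 15.7 in GTD272 and 12.3 to 17.5 in GT. In it Pecam1 was at 9.50 to 12.1 in GTWT and 9.09 to 12.99 in GT, and Tek, at 4.00 to 5.23 in GTWT and 2.32 to 3.73 in GT, rose by 0.45 (limma adjusted p = 0.0473), a call that was not stable. The part of these genes in other results was not tested.

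Of 11687 genes tested, 1223 fell in GTWT against GT (10.5%) and 717 rose (6.14%) at an adjusted p under 0.05. Falls outnumbered rises and were larger. Their median was -0.45 on the log2(FPKM + 1) scale, against 0.37 for rises and -0.01 for all tested genes. A difference of at least 1 on that scale was reached by 97 falls but 17 rises. Falls made up 63.0% of the calls, but 49.8% after quantile normalization (976 falls and 984 rises), so which direction held more genes depended on the scaling. A call was termed stable where it held, in the same direction, in all 8 fits that leave out 1 GTWT or GT library and after quantile normalization. Of the falls 690 were stable (5.9% of tested genes) and of the rises 370 (3.17%). Small RNA genes made up 14.99% to 83.9% of a library's FPKM sum over all genes, tested or not, and 5 of them were tested. Rescaling each library to the FPKM sum of its tested genes, whose small RNA share was not computed, left 14 falls and 2 rises. Of the 128 called genes chosen by the naming rule that setting kept the calls of Marf1, Gm4971 and Zfp711. With the 5 tested small RNA genes left out of that sum, rescaling gave 1020 falls and 968 rises. This last setting was added after the data were seen. FPKM are shares of a library, so with a lower value, less RNA of that gene per oocyte cannot be told apart from more RNA of other genes. Nor can fewer oocytes that hold the RNA be told apart from less of it in each.

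**Figure D1:**
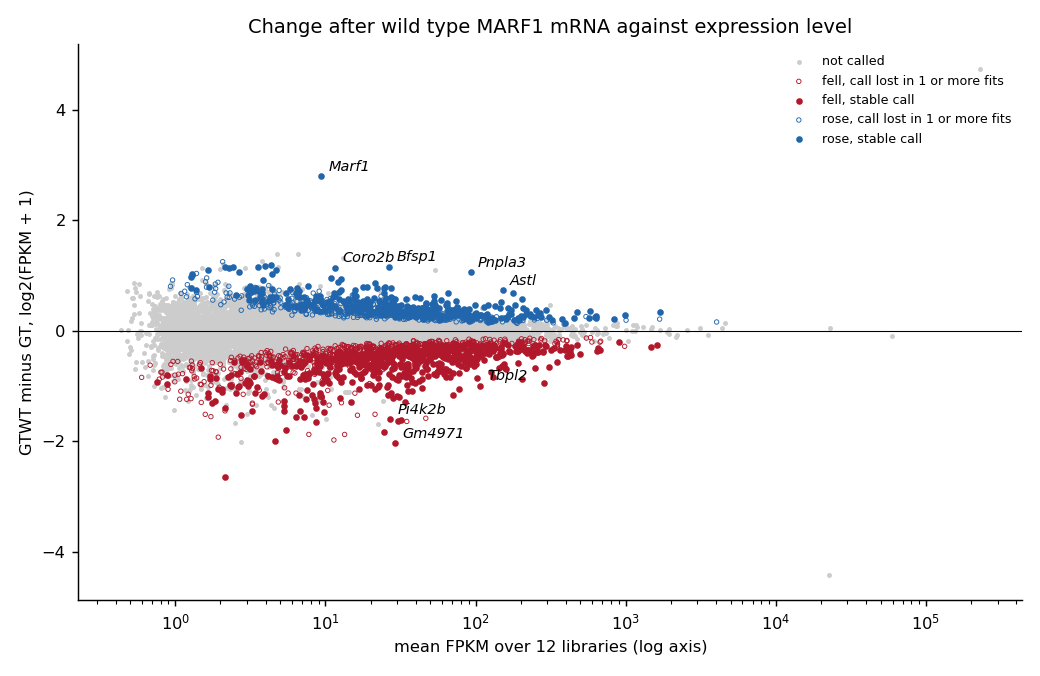
Each point is 1 of the 11687 tested genes, with its mean FPKM over the 12 libraries on a log axis and GTWT minus GT on the log2(FPKM + 1) scale; filled colours are stable calls (690 falls, 370 rises) and open colours are calls lost in 1 or more fits. Marf1 stands above the other calls at 2.80, and the falls reach further from 0 than the rises at most levels.

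Calls were more frequent among abundant mRNAs. Of genes with a mean under 5 FPKM 4.81% fell and 2.87% rose, whereas of those over 100 FPKM 23.7% fell and 11.8% rose. The classes between, 5 to 20 and 20 to 100 FPKM, had 8.69% and 15.4% falls. The values below are of genes chosen, outside loci listed with another gene, for the size of a stable change whose GTWT and GT libraries do not overlap, so their size describes them and is no separate evidence.

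Among genes of 10 to 100 FPKM, the largest falls so chosen were Gm4971, Gm4850, Gm8300, Pi4k2b, Gm20767, Gm5039, Gm4301 and Sepp1. The 6 Gm genes are predicted genes without an assigned function here. Gm4971 was at 9.28, 10.2, 10.2 and 9.34 in GTWT, 38.97, 44.6, 12.9 and 33.8 in GTD272 and 63.2, 40.8, 41.8 and 31.9 in GT. The GTWT libraries were nearly level, while both other groups spread widely and 1 GTD272 library, replicate 3, came close to the GTWT range. It fell by 2.04 against GT (SE 0.30, adjusted p = 0.000762). The other 5 Gm genes fell by 1.22 to 1.64, with GT values between 11.3 and 75.8 FPKM. Predicted genes of this kind can have near-identical copies among which the authors' estimate may have split reads, so their levels are uncertain.

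Pi4k2b (chromosome 5, 52741572 to 52769344, mm10), a kinase that makes phosphatidylinositol 4-phosphate on internal membranes, was at 13.7, 12.5, 15.4 and 12.6 in GTWT, 22.5, 30.05, 22.4 and 23.5 in GTD272 and 46.8, 43.8, 43.2 and 38.2 in GT. The 3 groups did not overlap and GTD272 lay between the others. Pi4k2b fell by 1.60 against GT (95% interval -1.82 to -1.38, adjusted p = 2.93e-06) and was lower than in GTD272 by -0.81 (adjusted p = 0.00131). Sepp1, which encodes selenoprotein P, the carrier of selenium between cells, was at 17.1, 15.7, 20.1 and 25.7 in GTWT, 17.2, 21.8, 16.1 and 20.96 in GTD272 and 54.3, 38.2, 47.2 and 46.5 in GT. Here the GTWT and GTD272 libraries overlapped and both lay below GT: the difference was -1.22 against GT (adjusted p = 0.000212) and 0.03 against GTD272 (SE 0.15, adjusted p = 0.937).

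**Figure D2:**
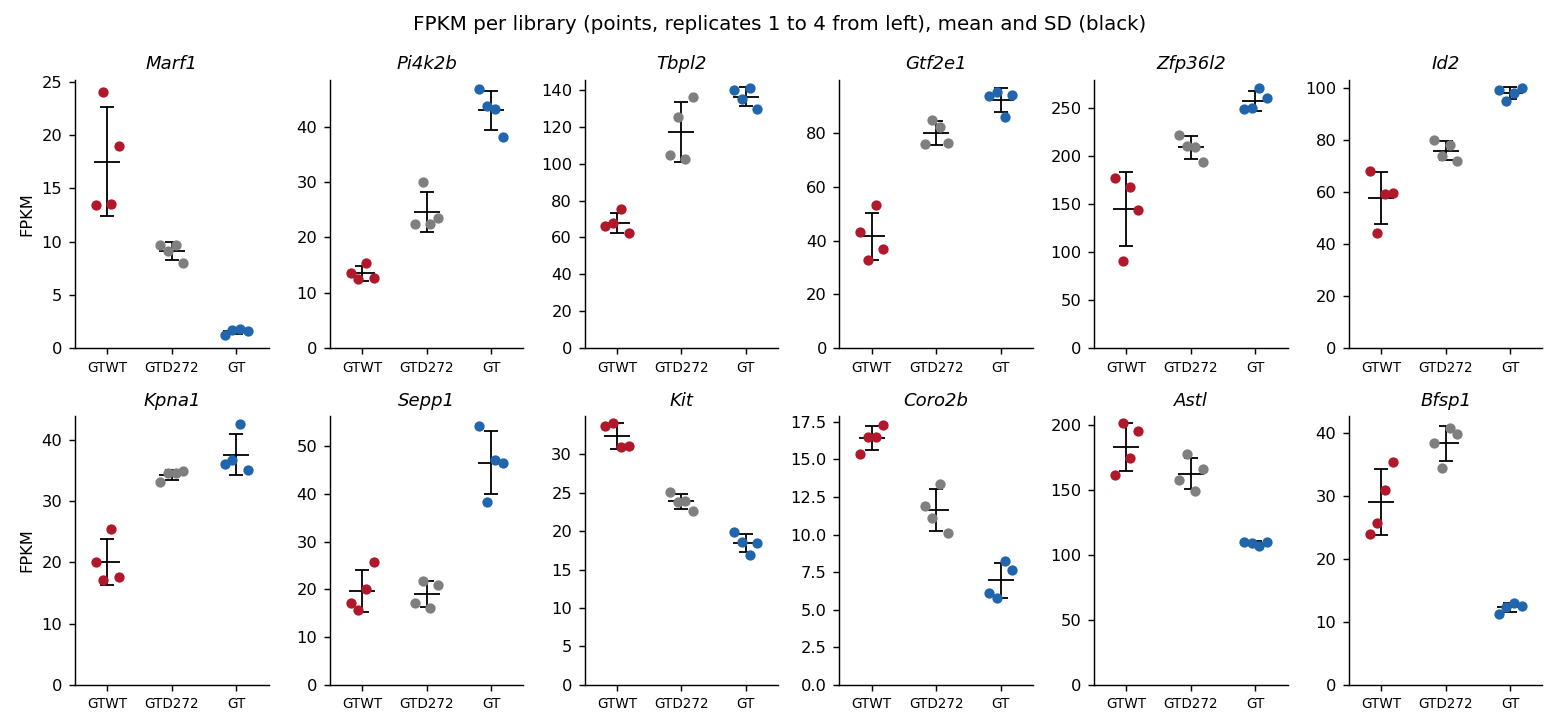
FPKM of 12 genes in each library (points, replicates 1 to 4 from left to right) with the mean and SD of each group in black; each panel has its own axis from 0. Marf1, Kit, Coro2b, Astl and Bfsp1 are higher and the other 7 genes lower in GTWT than in GT; Sepp1 is as low in GTD272 as in GTWT, while Gtf2e1 and Kpna1 in GTD272 lie closer to GT.

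Among mRNAs over 100 FPKM the largest falls so chosen were Tbpl2, Zfp715, Zfp36l2, Fam101a, Hmgn2, Inip, Fzd5 and Dnajb4. Tbpl2, the oocyte's paralog of the TATA-binding protein, which oocytes use in its place, was at 66.3, 67.96, 75.2 and 62.2 in GTWT, 105, 125, 103 and 136 in GTD272 and 139.8, 135, 141 and 129 in GT. It fell by 0.997 on the log2 scale against GT (SE 0.09, adjusted p = 2.48e-05), and no GTWT library reached the GTD272 range. Zfp36l2, a protein that binds AU-rich elements in 3′ UTRs and recruits mRNA decay, was at 177, 90.4, 167 and 143 in GTWT, 222, 209.9, 209 and 193 in GTD272 and 248, 249, 270.0 and 259.8 in GT. GTWT replicate 2 was the lowest by far, and the 3 groups did not overlap. Zfp36l2 fell by 0.87 (adjusted p = 0.00212); the difference from GTD272, -0.57, missed the threshold (adjusted p = 0.0667).

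Hmgn2, a nucleosome-binding protein, was at 107, 62.2, 97.8 and 85.7 in GTWT, 157, 149.6, 156 and 135 in GTD272 and 155, 153, 163 and 152 in GT with the GTD272 and GT libraries overlapping. Zfp715, a zinc finger gene, averaged 189 ± 34.1 in GTWT, 308 ± 23.9 in GTD272 and 359.8 ± 18.6 in GT (SD, n = 4 each). Fam101a, which encodes a protein that binds the actin crosslinker filamin, was at 69.7 ± 11.4, 112 ± 4.18 and 126 ± 9.74 in the same order of groups. Inip, a subunit of a complex on single-stranded DNA at breaks, was at 92.9 ± 15.3 in GTWT and 154 ± 8.64 in GT, and the Wnt receptor Fzd5 was at 118 ± 20.6 in GTWT and 188 ± 6.91 in GT. All 5 were called against GTD272 as well, by -0.53 for Inip to -0.78 for Hmgn2. Dnajb4, a co-chaperone of HSP70, was at 124 ± 8.31 in GTWT, 146 ± 10.8 in GTD272 and 199 ± 8.12 in GT; its difference from GTD272 was -0.23 (adjusted p = 0.0687).

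The largest rises so chosen between 10 and 100 FPKM were Bfsp1, Coro2b, Herpud1, Golph3l, Gm6682, Necap2, Il17f and Kit. Bfsp1, a filament protein best known from the lens, was at 23.96, 25.7, 30.97 and 35.4 in GTWT, 38.5, 34.3, 40.7 and 39.7 in GTD272 and 11.3, 12.4, 12.9 and 12.5 in GT. Both injected groups stood above GT, and every GTD272 library was above 3 of the 4 GTWT libraries. The rise against GT was 1.16 (SE 0.11, adjusted p = 3.12e-05). Herpud1, a component of the machinery that removes misfolded proteins from the endoplasmic reticulum, had the same order, with 11.98 ± 2.85 in GTWT, 15.1 ± 2.15 in GTD272 and 5.62 ± 1.06 in GT (SD, n = 4 each). It rose by 0.96 (adjusted p = 0.0016).

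Kit, the oocyte's receptor for Kit ligand from granulosa cells, was at 33.7, 34.01, 30.9 and 31.1 in GTWT, 25.1, 23.8, 23.9 and 22.7 in GTD272 and 19.8, 18.5, 16.9 and 18.4 in GT. The 3 groups did not overlap. Kit was higher by 0.78 than in GT (SE 0.07, adjusted p = 2.48e-05) and by 0.43 than in GTD272 (adjusted p = 0.00507). Coro2b, a coronin that binds actin, was at 16.4 ± 0.800 in GTWT, 11.6 ± 1.38 in GTD272 and 6.95 ± 1.18 in GT, and Golph3l, a Golgi protein that binds phosphatidylinositol 4-phosphate, at 16.7 ± 1.92, 11.01 ± 1.17 and 8.61 ± 0.575 in that order. Necap2, an endocytic clathrin adaptor, rose by 0.80, the predicted gene Gm6682 by 0.86 and the cytokine gene Il17f by 0.79.

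Among mRNAs over 100 FPKM, Astl, Rpl37rt, Ermp1, Scamp5, Laptm4b, Zp2, Fmnl3 and Tuba1c rose most among genes so chosen. Astl encodes ovastacin, the cortical granule protease that cleaves ZP2 after fertilization, and was at 161, 201, 175 and 195 in GTWT, 157, 177, 149 and 166 in GTD272 and 110.1, 109, 107 and 110.0 in GT. Zp2, its substrate in the zona pellucida, was at 142, 163, 136 and 162 in GTWT, 136, 132, 143 and 149.7 in GTD272 and 101, 112, 108 and 121 in GT. For both genes every injected library was above every GT library, and the GTWT and GTD272 libraries overlapped. Astl rose by 0.74 (adjusted p = 3.52e-05) and Zp2 by 0.44 (adjusted p = 0.00142). The endoplasmic reticulum metallopeptidase gene Ermp1 rose by 0.52, the secretory carrier gene Scamp5 and the lysosomal membrane gene Laptm4b both by 0.46, and the formin gene Fmnl3 by 0.42. Rpl37rt and Tuba1c rose by 0.57 and 0.42, but Rpl37rt is a retrogene and Tuba1c has near-identical paralogs, so their levels are uncertain.

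Since GT cancels, GTWT minus GTD272 measures what wild type MARF1 mRNA did beyond mutated MARF1 mRNA under the same injection and culture. By that contrast 215 genes were lower in GTWT (1.84%) and 73 higher (0.625%). Of the 1223 falls 194 (1.66% of tested genes) were also lower than in GTD272, and of the 717 rises 47 (0.402%) were also higher. The GTWT libraries enter both contrasts, so these counts are no independent repeat. They rest on few libraries: without GTWT replicate 2 or 4 the 194 became 124 and 107, and without GTWT replicate 1, 2 or 4 the 47 became 27, 31 and 23. After quantile normalization the 47 became 101, and with a replicate block 25. Over all falls the median of GTWT minus GTD272 was -0.25, and over all rises 0.16. Marf1 itself was higher in GTWT than in GTD272 by 0.84 on the log2 scale (adjusted p = 0.0188, and 0.0547 without GTWT replicate 4), so the amount of MARF1 mRNA and its mutation cannot be told apart in this contrast.

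Among genes called in both contrasts, with a mean of at least 10 FPKM and otherwise chosen as above, those with the largest differences from GTD272 were, on the falling side, Gm4971, Gm4301, Gm20767, Gm5039, AF067063 and Emc7. Of 39 named genes called against GTD272, 23 kept that call without each GTWT library in turn, Emc7 and AF067063 among them, and Gm4971 and Gm5039 did not. Emc7, a subunit of the complex that inserts membrane proteins into the endoplasmic reticulum, was at 14.3, 14.6, 12.1 and 14.5 in GTWT, 34.6, 27.5, 23.2 and 36.2 in GTD272 and 24.05, 30.02, 23.9 and 18.7 in GT. Its GTD272 and GT libraries overlapped, and it was lower by -1.06 than in GTD272 and by -0.75 than in GT (adjusted p = 0.00289 and 0.00457). AF067063, for which no function is given here, was at 19.4 ± 3.33 in GTWT, 43.7 ± 9.07 in GTD272 and 42.7 ± 10.1 in GT (SD, n = 4 each).

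On the rising side, Marf1 with its mean under 10 FPKM being left out by this rule, they were Abl2, Golph3l, Cttnbp2nl, Coro2b, Kit and Ehd4. Coro2b lost the call against GTD272 in each fit without 1 GTWT library, and the other 5 kept it. Abl2, a tyrosine kinase that acts on the actin cytoskeleton, was at 78.3, 66.6, 70.1 and 69.96 in GTWT, 41.6, 45.3, 48.6 and 49.7 in GTD272 and 57.9, 47.8, 55.4 and 53.6 in GT, so that GTD272 was the lowest group. Cttnbp2nl, a relative of cortactin-binding protein, was at 68.1 ± 3.98 in GTWT, 46.98 ± 1.79 in GTD272 and 51.1 ± 2.46 in GT. Ehd4, an ATPase of endocytic recycling, was at 83.4 ± 4.18 in GTWT, 61.8 ± 2.65 in GTD272 and 51.5 ± 3.35 in GT. It rose by 0.69 against GT (adjusted p = 2.48e-05).

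Genes were then read by function in 24 lists, each beside the 10.5% that fell and 6.14% that rose over all tested genes (5.9% and 3.17% as stable calls). Falls also lower than in GTD272 made up 1.66% of all tested genes. No list was tested as a whole. Changes of single members have their adjusted p from the fit over all genes.

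**Figure D3:**
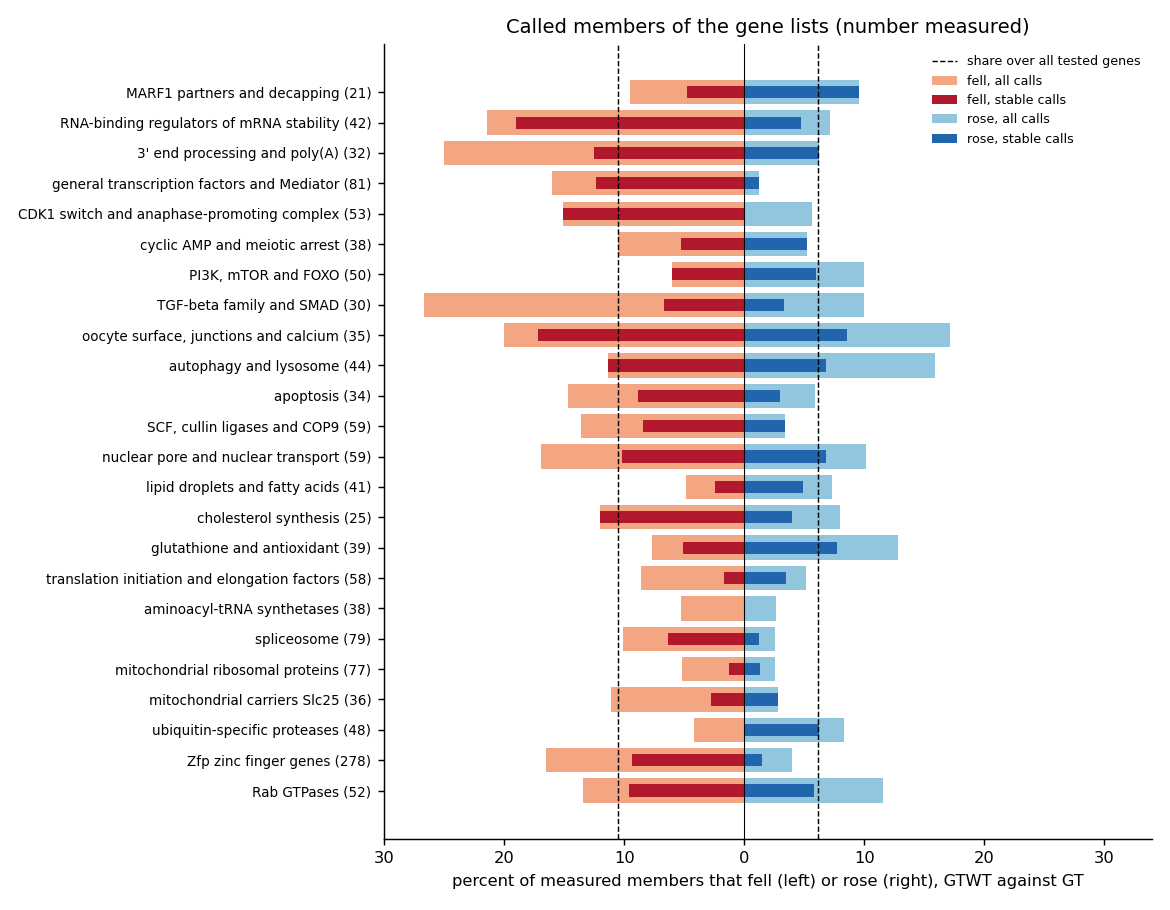
Share of the measured members of each gene list (number in brackets) that fell, to the left, or rose, to the right, in GTWT against GT; wide bars are all calls, narrow bars stable calls, and dashed lines the shares over all tested genes (10.5% and 6.14%). RNA-binding regulators of mRNA stability, CDK1 switch and anaphase-promoting complex, and oocyte surface genes have the longest bars of stable falls. The aminoacyl-tRNA synthetases and the ubiquitin-specific proteases have no stable falls.

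Of 21 measured genes in the list of MARF1 partners and decapping factors 2 fell and 2 rose, with a median of -0.02. The list includes Marf1 itself, whose mRNA was injected, among the rises. It also includes the known target Ppp2cb among the falls. Apart from Marf1, Ppp2cb and Ppp2ca the call was Eif4enif1, which encodes the protein 4E-T that links cap-bound mRNAs to decapping. Eif4enif1 was at 135 ± 5.21 in GTWT and 117 ± 4.13 in GT (SD, n = 4 each), in a locus that holds another listed transcript. Of 42 RNA-binding regulators of mRNA stability 9 fell and 3 rose, of which 8 and 2 were stable, with a median of -0.13. Zfp36, the tristetraprolin gene and relative of Zfp36l2, was at 17.3, 13.1, 12.1 and 16.7 in GTWT, 15.7, 12.6, 17.5 and 12.6 in GTD272 and 25.4, 26.8, 22.5 and 26.3 in GT. Its GTWT and GTD272 libraries overlapped, below every GT library, and it fell by 0.75 (adjusted p = 0.00195). Larp1, which binds mRNAs of ribosomal proteins, was at 17.3 ± 2.39 in GTWT and 24.3 ± 0.809 in GT, and Larp4, which binds poly(A), at 15.97 ± 2.70 in GTWT and 22.8 ± 2.46 in GT, in a locus that holds another listed transcript. Syncrip, Pum2, Fmr1 and Ythdc1 also had stable falls, of 0.27 to 0.44. The stable rises were Igf2bp2 (0.29) and Ybx2 (0.38), and YBX2 is the germ cell Y-box protein that packages stored mRNA.

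Of 32 genes of 3′ end processing and poly(A) 8 fell and 2 rose (4 and 2 stable; median -0.14). Clp1, a kinase of the cleavage machinery, was at 127, 85.5, 117 and 106 in GTWT, 145, 156, 137 and 147 in GTD272 and 181, 156, 173 and 183 in GT and fell by 0.68 (adjusted p = 0.000762). Pcf11, which couples cleavage to the end of transcription, was at 20.7 ± 1.72 in GTWT and 26.3 ± 1.54 in GT, and Paip2, a repressor of poly(A)-binding protein listed in 1 locus with Slc23a1, at 286 ± 17.8 and 365 ± 11.6. Pabpc1l, the poly(A)-binding protein of oocytes, was at 87.8 ± 6.68 in GTWT and 68.2 ± 2.30 in GT and rose by 0.36 (adjusted p = 0.0013). Of 79 spliceosome genes 8 fell and 2 rose (5 and 1 stable; median -0.05), with stable falls of the SR proteins Srsf7 (-0.51), Srsf11 (-0.47), Srsf2 (-0.36) and Srsf1 (-0.35). The U5 GTPase gene Eftud2 rose by 0.58.

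Of 58 translation factors 5 fell and 3 rose (1 and 2 stable; median -0.03). Eif5a2 fell to 8.52 ± 2.09 in GTWT, against 15.6 ± 1.504 in GT, and Eif4e1b, the cap-binding protein of oocytes, was at 617 ± 13.2 in GTWT and 526 ± 24.1 in GT (SD, n = 4 each). Of 38 aminoacyl-tRNA synthetases 2 fell and 1 rose, none of them stable, with a median of 0.14. The mitochondrial enzymes Hars2 (-0.62) and Mars2 (-0.51) and the cytosolic Iars (0.71) each lost the call without at least GTWT replicate 2.

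General transcription factors and Mediator subunits fell more often than they rose. Of 81 measured 13 fell and 1 rose (10 and 1 stable), with a median of -0.10, and 6 of the falls (7.41% of those measured) were also lower than in GTD272. Gtf2e1, a subunit of TFIIE, was at 43.2, 32.98, 53.2 and 36.8 in GTWT, 76.1, 85.1, 82.3 and 76.2 in GTD272 and 93.9, 95.4, 85.8 and 94.2 in GT. Its GTWT libraries lay below all others. The fall was 1.15 against GT (SE 0.11, adjusted p = 3.78e-05), and the difference from GTD272 was -0.95 (adjusted p = 0.000996). Ccnc, the cyclin of the Mediator kinase module, listed in 1 locus with Tstd3, was at 17.03, 12.1, 21.02 and 12.2 in GTWT, 27.6, 28.9, 23.3 and 27.2 in GTD272 and 39.4, 38.9, 31.2 and 32.2 in GT. Gtf2a1, a subunit of TFIIA, which pairs with TATA-binding proteins, was at 11.3, 13.3, 18.7 and 13.3 in GTWT, 19.5, 30.1, 21.9 and 26.2 in GTD272 and 26.8, 28.4, 20.3 and 22.2 in GT. Ccnc fell by 1.16 (adjusted p = 0.00031) and Gtf2a1 by 0.76 (adjusted p = 0.00641). With Tbpl2 these are the 4 largest stable falls of the list. Against GTD272, Gtf2e1 and Tbpl2 kept the call without any 1 GTWT library, while Ccnc lost it without replicate 4 and Gtf2a1 without replicate 1, 2 or 4. Taf4b, a TFIID subunit needed in the ovary, had a stable fall of 0.40.

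Of 278 measured genes named Zfp 46 fell and 11 rose (26 and 4 stable; median -0.10), and 8 of the falls (2.88% of those measured, against 1.66% of all tested genes) were also lower than in GTD272. Zfp711, an X-linked transcription factor, was at 2.73, 1.45, 2.12 and 2.70 in GTWT, 3.48, 4.32, 3.48 and 3.59 in GTD272 and 14.3, 9.51, 8.85 and 8.75 in GT. Both injected groups stood below GT, and the fall was 1.80 (adjusted p = 3.78e-05). Zfp367 was at 11.6, 10.8, 18.7 and 12.5 in GTWT, 24.8, 29.1, 28.1 and 29.97 in GTD272 and 29.9, 32.1, 21.8 and 24.7 in GT, so that GTD272 and GT overlapped and GTWT lay below both. Its difference was -0.98 against GT and -1.04 against GTD272 (adjusted p = 0.00107 and 0.00338). Zfp105 averaged 1.64 ± 0.537 in GTWT and 4.07 ± 1.06 in GT. Zfp809, a repressor of retroviruses in embryonic cells, was at 2.59 ± 0.714 in GTWT and 8.44 ± 3.15 in GT, but its listed locus holds many other genes, so its level is uncertain.

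Of 53 genes of the CDK1 switch and the anaphase-promoting complex 8 fell and 3 rose, with a median of -0.06; all 8 falls and no rise were stable. The falls held 4 subunits of the anaphase-promoting complex, the ubiquitin ligase that ends metaphase: Cdc27 (-0.62), Anapc10 (-0.59), Cdc26 (-0.58) and Cdc23 (-0.56). The share of falls among all measured subunits of this complex was not computed. Cdc27 was at 17.7, 21.5, 29.3 and 22.1 in GTWT, 23.2, 33.2, 26.8 and 32.4 in GTD272 and 35.8, 34.8, 35.6 and 33.03 in GT, with no overlap of GTWT and GT. Mad2l1bp, which encodes p31comet, the protein that silences the spindle checkpoint, was at 15.03, 11.2, 15.3 and 7.56 in GTWT, 18.8, 18.1, 20.9 and 22.9 in GTD272 and 24.6, 25.5, 25.3 and 22.3 in GT. Its fall was 0.98 (SE 0.17, adjusted p = 0.00181). The cyclin E genes Ccne1 and Ccne2 fell to 28.00 ± 3.32 and 44.4 ± 9.79 in GTWT, against 44.8 ± 3.41 and 72.1 ± 10.8 in GT (SD, n = 4 each), where Ccne2 shares a listed locus with Ints8. Mos, the kinase that keeps eggs in metaphase II, fell by 0.31. Cdk1 and Ccnb1, the kinase and the cyclin that start meiotic maturation, were not called: Cdk1 was at 12.8 ± 1.26 in GTWT and 12.9 ± 1.37 in GT, and Ccnb1 at 294 ± 13.7 in GTWT and 334 ± 17.6 in GT.

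Of 38 genes of cyclic AMP and meiotic arrest 4 fell and 2 rose (2 and 2 stable; median 0.02). The stable falls were the adenylyl cyclase gene Adcy6, at 23.5 ± 2.82 in GTWT and 31.6 ± 1.89 in GT, and the cyclic AMP response factor Creb1, at 12.5 ± 3.34 in GTWT and 18.3 ± 0.413 in GT. The anchoring protein gene Akap1, whose locus holds another listed transcript, rose by 0.25 and the G protein subunit gene Gng12 by 0.26. Of 50 genes of PI3K, mTOR and FOXO signalling 3 fell and 5 rose (3 and 3 stable; median 0.04). The falls held both catalytic subunits of AMP-activated kinase. Prkaa2 was at 23.5, 17.9, 25.5 and 19.8 in GTWT, 35.3, 38.1, 37.9 and 34.8 in GTD272 and 39.5, 38.4, 38.4 and 38.2 in GT, and Prkaa1 at 10.9, 10.01, 11.2 and 8.72 in GTWT, 17.1, 16.00, 14.8 and 13.8 in GTD272 and 12.9, 16.6, 13.2 and 16.7 in GT. For both, GTWT lay below GTD272 as well as GT, by -0.74 and -0.55 against GTD272 (adjusted p = 0.00126 and 0.0216, the second lost without GTWT replicate 4). Stk11, which encodes LKB1, the kinase that activates AMP-activated kinase, rose by 0.35. Sesn1 fell to 5.68 ± 1.04 in GTWT, against 9.14 ± 0.571 in GT.

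Of 30 genes of the TGF-beta family and SMAD signalling 8 fell and 3 rose, but 2 and 1 were stable (median -0.13). Id2, an inhibitor of basic helix-loop-helix factors and a target of BMP signals, was at 68.3, 44.2, 59.4 and 59.7 in GTWT, 80.01, 73.96, 78.2 and 71.96 in GTD272 and 99.3, 94.95, 98.1 and 100.3 in GT and fell by 0.77 (adjusted p = 0.000292). Tob1, which brings deadenylases to mRNAs, was at 42.4 ± 7.28 in GTWT and 60.7 ± 4.35 in GT, and the SMAD repressor gene Ski at 173 ± 3.11 and 147 ± 9.24 (SD, n = 4 each). Of 35 genes of the oocyte surface, junctions and calcium 7 fell and 6 rose (6 and 3 stable; median -0.05). The connexin 45 gene Gjc1 was at 21.2, 20.6, 25.6 and 20.2 in GTWT, 30.8, 25.7, 30.5 and 27.5 in GTD272 and 39.4, 35.6, 31.05 and 36.2 in GT and fell by 0.68 (adjusted p = 0.000567). Gja4, which encodes connexin 37, the channel that joins oocyte and granulosa cells, rose by 0.21. Stim2, the calcium sensor of the endoplasmic reticulum, fell by 0.43, Ctnna1, alpha-catenin, by 0.46, and the integrin gene Itgb5 rose by 0.45; Ctnna1 shares a listed locus with Lrrtm2.

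Of 59 nuclear pore and transport genes 10 fell and 6 rose (6 and 4 stable; median -0.04). Among the stable falls were 4 importin alphas, the adaptors that carry proteins into the nucleus. Kpna1 was at 20.04, 17.2, 25.4 and 17.6 in GTWT, 33.1, 34.5, 34.6 and 34.96 in GTD272 and 36.1, 36.7, 42.5 and 35.1 in GT, and Kpna4 at 43.1, 30.2, 48.01 and 38.4 in GTWT, 54.1, 54.2, 55.6 and 53.4 in GTD272 and 70.7, 69.6, 70.2 and 67.7 in GT. The GTWT libraries were below those of both other groups for each gene, by -0.76 and -0.45 against GTD272 (adjusted p = 0.00267 and 0.0355, the second lost without GTWT replicate 4). Kpna1 fell by 0.89 and Kpna4 by 0.80 against GT, and Kpna3 and Kpna2 by 0.40 and 0.33. Kpna6 and Kpna7, the other importin alphas of the list, were not called, with differences of -0.03 and 0.10. Rangap1, the GTPase-activating protein of Ran, rose by 0.82, at 4.31 ± 1.09 in GTWT and 1.96 ± 0.155 in GT.

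Of 59 SCF, cullin ligase and COP9 genes 8 fell and 2 rose (5 and 2 stable; median -0.07). The X-linked Dcaf12l1, a substrate receptor gene, was at 4.86, 3.63, 5.32 and 3.39 in GTWT, 5.22, 6.81, 6.33 and 5.56 in GTD272 and 19.7, 14.4, 15.8 and 12.6 in GT, with both injected groups under every GT library. Rnf7, a RING subunit of cullin ligases, was at 112 ± 11.4 in GTWT and 142 ± 6.16 in GT, and Klhdc1, a kelch protein, rose to 6.54 ± 1.01 in GTWT, against 2.71 ± 0.679 in GT. Of 48 ubiquitin-specific proteases 2 fell and 4 rose (0 and 3 stable; median 0.02). Usp46 was at 116, 121, 113 and 105 in GTWT, 103, 102, 98.7 and 95.8 in GTD272 and 79.9, 83.8, 80.1 and 84.5 in GT and rose by 0.47 (adjusted p = 0.000106). Usp27x and the mitochondrial Usp30 rose by 0.31 and 0.18.

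Of 44 autophagy and lysosome genes 5 fell and 7 rose (5 and 3 stable; median 0.06). The protease gene Atg4c fell to 1.72 ± 0.827 in GTWT, against 4.14 ± 0.108 in GT, and the lysosomal membrane gene Lamp2 to 8.88 ± 0.602 in GTWT, against 13.7 ± 1.76 in GT (SD, n = 4 each). Ctsl, a lysosomal protease, fell by 0.59, while Uvrag, a partner of beclin, rose by 0.37 and Lamp1 by 0.23. Of 34 apoptosis genes 5 fell and 2 rose (3 and 1 stable; median -0.07). The stable falls included Birc2 (-0.30) and Birc3 (-0.27), which encode inhibitors of apoptosis, beside Casp8ap2 (-0.51), and the stable rise was the executioner caspase gene Casp6 (0.75), at 7.55 ± 1.49 in GTWT and 4.02 ± 0.200 in GT. Of 52 Rab genes and effectors 7 fell and 6 rose (5 and 3 stable; median 0.00). Rab28 was at 19.5 ± 1.75 in GTWT, 25.5 ± 2.45 in GTD272 and 27.4 ± 1.58 in GT, and the X-linked Rab39b fell by 0.52. Rab20 fell by 1.01 and Rab11fip1, an effector of the recycling Rab11 gene, rose by 0.46, both in loci shared with other listed transcripts.

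In metabolism, 3 of 25 measured cholesterol synthesis genes fell and 2 rose (3 and 1 stable; median 0.03). Among the falls, Sc5d, a desaturase late in the pathway, fell by 0.52 and Hmgcs1, a synthase early in it, by 0.27. Fdft1, squalene synthase, listed in 1 locus with Ctsb, rose by 0.24. Of 41 genes of lipid droplets and fatty acids 2 fell and 3 rose (1 and 2 stable; median 0.04). Pnpla3, a lipid droplet protein whose locus also holds a microRNA, was at 80.5, 111, 108 and 111 in GTWT, 133, 128, 125 and 123 in GTD272 and 59.4, 36.6, 46.8 and 53.7 in GT, so that both injected groups were above GT. It rose by 1.06 against GT. Hilpda, an inhibitor of lipolysis, fell to 34.6 ± 5.84 in GTWT, against 61.9 ± 10.04 in GT, and the phosphatidate phosphatase gene Lpin2 was at 168 ± 3.08 in GTWT and 126 ± 2.69 in GT (SD, n = 4 each).

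Of 39 glutathione and antioxidant genes 3 fell and 5 rose (2 and 3 stable; median 0.01). Gclc, the catalytic subunit of the enzyme that starts glutathione synthesis, was at 20.1, 19.3, 16.9 and 21.3 in GTWT, 23.6, 23.2, 24.2 and 22.6 in GTD272 and 26.4, 31.98, 34.5 and 31.5 in GT and fell by 0.65 (adjusted p = 0.000445). Hmox1, heme oxygenase, rose by 1.15, at 4.10 ± 1.98 in GTWT and 1.19 ± 0.401 in GT, and the glutathione transferase gene Gstp1 by 1.17; Gstp1 has a close paralog, so its level is uncertain. Of 36 mitochondrial carriers 4 fell and 1 rose (1 and 1 stable; median -0.08), and of 77 mitochondrial ribosomal proteins 4 fell and 2 rose (1 and 1 stable; median -0.03). The stable calls were the carrier Slc25a38 (-0.30), Slc25a26 (0.45), which carries S-adenosylmethionine and shares its listed locus with Lrig1, Mrps36 (-0.45) and Mrpl9 (0.56).

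The genes that fell had more A and U in their 3′ UTRs than those that rose. Among 10406 tested genes with a 3′ UTR of at least 50 bases in the longest coding GENCODE transcript, the median share of A and U was 60.5% for falls, 52.9% for rises and 55.5% for genes not called. By quintiles of genes, from the lowest share of A and U to the highest, 5.28%, 6.30%, 8.93%, 13.1% and 20.2% fell, and 8.26%, 8.60%, 6.87%, 5.58% and 2.31% rose. When 1 GTWT or GT library at a time was left out, falls made up 3.70% to 4.71% of the lowest quintile and 14.03% to 21.05% of the highest. After quantile normalization these shares were 4.08% and 16.5%. GTWT was lower than GTD272 in 1.20% of the lowest quintile and 2.98% of the highest. Genes share sequence families and libraries, so these shares are a description without a test.

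The same trend was visible library by library. The median deviation from each gene's mean over the 12 libraries, in the highest minus the lowest quintile, was -0.10, -0.09, 0.03 and -0.15 on the log2 scale in GTWT replicates 1 to 4, -0.11, 0.04, -0.07 and 0.01 in GTD272, and 0.14, 0.11, 0.15 and 0.05 in GT. No GTWT library overlapped GT, but GTWT replicate 3 stood near the lowest GT library and the GTD272 libraries overlapped those of GTWT. Composition of the whole transcript moved along: of the quintile of genes with the lowest GC content 18.5% fell and of the highest 6.28%. Whether a library's GC preference had a part in this was not tested.

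AU-rich elements are 3′ UTR stretches built around overlapping ATTTA, through which proteins such as ZFP36L2 act on mRNA decay. The 7 bases TATTTAT, read on the sense strand of the mRNA, stood in 28.2% of all 10406 3′ UTRs, in 39.2% of those of falls, 24.9% of those of rises and 27.1% of the rest; the shorter ATTTA lies within it. Of genes with the motif 14.9% fell, against 9.13% of those without. The motif holds only A and U, and 20.2% of the whole quintile highest in A and U fell. These shares were not split by 3′ UTR composition, so the motif and composition cannot be told apart here. Long 3′ UTRs hold more motifs, and within quintiles of 3′ UTR length the shares with and without it were 8.26% and 5.84% in the shortest, 15.7% and 10.99% in the middle and 14.1% and 12.1% in the longest quintile. Of the genes named above for the largest changes, 4 of 11 falls and 3 of 13 rises with an annotated 3′ UTR hold it. The first such stretch of each is shown because the motif stood in named genes of both directions. Each is 30 bases of the sense strand, 5′ to 3′, from GENCODE transcripts on GRCm38, with the motif in capitals.

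Zfp36l2, fell, chr17:84184913-84184942, minus strand: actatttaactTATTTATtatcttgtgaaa

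Pi4k2b, fell, chr5:52769277-52769306, plus strand: tttaatgagcaTATTTATattgtcaaatat

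Inip, fell, chr4:59771416-59771445, minus strand: acagaggtgctTATTTATatatgtacctcc

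Fzd5, fell, chr1:64730640-64730669, minus strand: tggagattagtTATTTATgaaaaacaaaga

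Ermp1, rose, chr19:29611742-29611771, minus strand: ggattttataaTATTTATtctgttatatat

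Il17f, rose, chr1:20777242-20777271, minus strand: aaactattataTATTTATgttggtagggga

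Coro2b, rose, chr9:62419528-62419557, minus strand: tcttctgtgatTATTTATgctgcctcccaa

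Zfp36l2 itself holds 3 of these motifs in a 3′ UTR of 1822 bases, and Il17f holds 2. The share of A and U ran from 54.3% to 68.0% over the 11 falls (median 64.7%) and from 44.1% to 63.3% over the 13 rises (median 54.2%), so both sets overlapped. A motif is only a match of letters, and it was present in genes of both directions.

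Genes of the X chromosome fell more often than others. Of 402 tested X-linked genes 77 fell (19.2%) and 2.49% rose, against 10.2% and 6.27% of autosomal genes, and no autosome had more than 13.3% falls. When 1 library at a time was left out, 13.7% to 20.9% of X-linked genes and 7.002% to 10.03% of autosomal genes fell. X-linked genes are also often AU-rich: 147 lie in the highest quintile. Within that quintile 31.3% of X-linked and 19.4% of autosomal genes fell, and within the next lower one 15.96% and 12.99%. GTWT was lower than GTD272 in 1.49% of X-linked and 1.85% of autosomal genes, so the share was not higher on the X in that contrast. The median deviation of X-linked minus autosomal genes was -0.05, -0.07, -0.01 and -0.07 in GTWT, -0.05, -0.01, -0.03 and 0.00 in GTD272, and 0.08, 0.08, 0.09 and 0.05 in GT. Both injected groups were thus below all GT libraries.

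**Figure D4:**
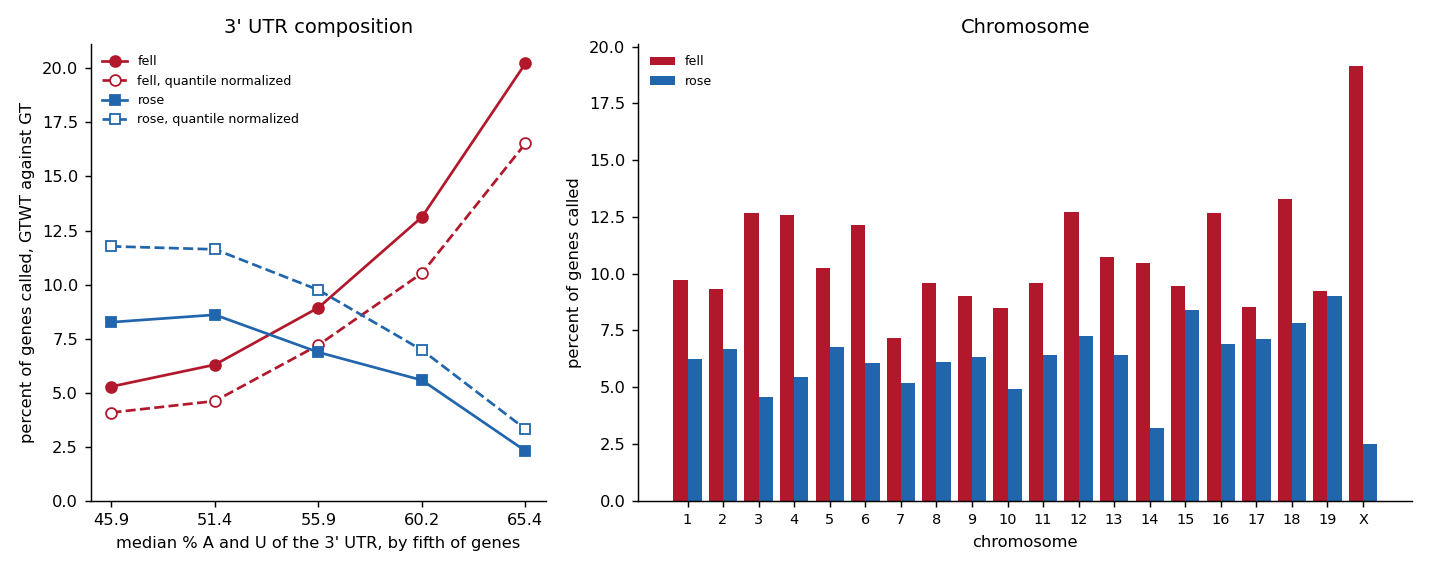
Left, share of genes that fell (circles) or rose (squares) in GTWT against GT by quintile of 3′ UTR composition, as deposited (filled) and after quantile normalization (open); right, shares by chromosome. Falls go from 5.28% to 20.2% across the quintiles while rises go from 8.26% to 2.31%, and the X chromosome has the highest share of falls, 19.2%.

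X-linked falls besides Zfp711, Dcaf12l1, Lamp2 and Rab39b included C1galt1c1, the chaperone of an enzyme that builds O-glycans, at 47.9, 40.3, 62.2 and 51.3 in GTWT, 76.6, 76.1, 75.7 and 86.5 in GTD272 and 116, 104, 96.7 and 104 in GT. It fell by 1.06 (SE 0.10, adjusted p = 4.57e-05). Prps1, which makes the precursor of nucleotides, was at 4.23 ± 1.90 in GTWT, 5.64 ± 1.77 in GTD272 and 10.2 ± 2.24 in GT (SD, n = 4 each). Both genes were chosen after their values were seen.

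The 4 GTWT libraries differed in Marf1, and their order was compared with that of the falls. GTWT replicate 2, the library with the most Marf1 (24.1 FPKM), was the lowest of the 4 in 566 of the 1223 falls (46.3%), and replicate 3, with 13.6 FPKM, was the lowest in 12.02% and the highest in 43.99%. Over all tested genes replicate 2 was the lowest in 27.5% and replicate 3 in 25.3%, and over the rises in 17.6% and 35.1%. Among the 194 falls that were also lower than in GTD272, replicate 2 was the lowest in 112 (57.7%). Replicate 4, with 19.02 FPKM of Marf1, was the lowest in 258 falls (21.1%), and replicate 1, with 13.5 FPKM, in 252 (20.6%). Over all tested genes these 2 libraries were the lowest in 23.4% and 23.8%. Only replicate 2 was thus the lowest more often among falls than over all tested genes. Replicates 4 and 1 were nearly level in this share but not in Marf1, and replicates 1 and 3 the reverse. The same libraries gave the calls and the order, and no correlation is given over 4 libraries, so this is a description.

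**Figure D5:**
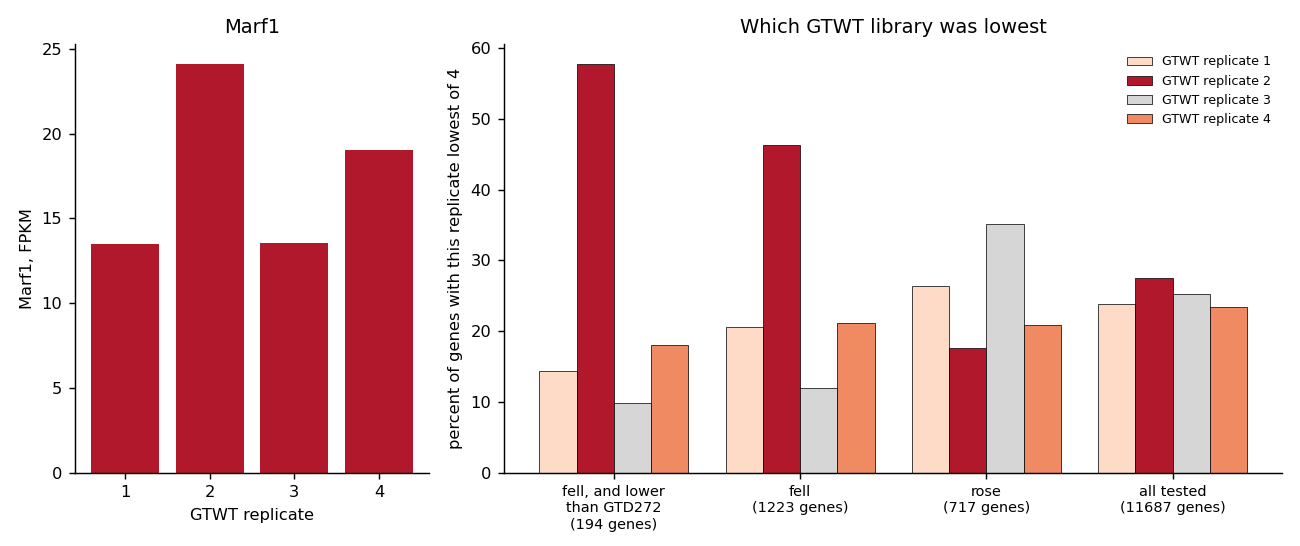
Left, Marf1 FPKM in each GTWT library; right, share of genes in which each GTWT library was the lowest of the 4, for the 194 falls that were also lower than in GTD272, all 1223 falls, 717 rises and all 11687 tested genes. Replicate 2, highest in Marf1, was the lowest in 57.7% and 46.3% of the 2 groups of falls and in 27.5% of all tested genes.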

How the data were processed

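RNA was sequenced from 12 pools of oocytes. Per the labels' protocols and the submitters' processing notes, reads were trimmed and mapped to mm10 by TopHat2 2.0.13 and the authors deposited FPKM values normalized with Cufflinks 2.2.1; the authors' annotation is not given in the sources used. Replicates were not pooled. The deposited table holds 24254 genes, and its header names stand 1 column left of the values. The authors' fold changes and p-values were not used. Cufflinks divides reads of near-identical genes by an estimate, and no source says that strand was used, so such genes and overlapping ones are uncertain. Of the genes, 5708 share a listed locus, 2469 of them tested. Read counts are unknown, and the relative depth was read from whole-number ratios of low values.

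limma 3.58.1 in R 4.3.3 was fitted with a mean-variance trend to log2(FPKM + 1), a scale that understates changes of low genes, over all 12 libraries in 1 model (residual degrees of freedom 9, prior 4.47). A gene was kept if 4 or more of the 12 libraries had 1 FPKM or more (11687 genes). Calls are at a Benjamini-Hochberg adjusted p under 0.05, and SEs and 95% intervals are limma's. The script was tested on simulated data.

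The comparison, its gene lists and the tests were chosen with earlier results of these data known. Named are, among stable calls without overlap of GTWT and GT and outside shared loci, the 8 largest falls and rises with a mean of 10 to 100 FPKM and over 100 FPKM, the 6 largest in each direction against GTD272 among genes called in both contrasts, up to 4 called members of each list, and Marf1, Ppp2cb and Ppp2ca. Other members with stable calls, uncalled ones and X-linked genes were named after their values were seen. 3′ UTRs come from the GENCODE M21 basic set on GRCm38, matched by symbol, for 10748 of the tested genes (92%), of which 10406 have a 3′ UTR of at least 50 bases. RefSeq held 99.4% of the symbols. The alternatives were quantile normalization, 2 rescalings, a pseudocount of 0.1, other filters, a fit of the 8 libraries alone, a replicate block, no trend, genes of shared loci or small RNA genes left out, and each GTWT or GT library left out in turn.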

Additional observations from a re-analysis of the deposited data

Results flagged for a closer look

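In 3 genes named in the report a single library lay far from the other 3 of its group. Ehd4 in GTWT replicate 4 was at 77.2 FPKM, below the other GTWT libraries at 84.8, 86.0 and 85.6 FPKM. Emc7 in GTWT replicate 3 was at 12.1 FPKM, below 14.3, 14.6 and 14.5 FPKM in the others. Necap2 in GT replicate 3 was at 13.9 FPKM, above 11.4, 11.5 and 11.4 FPKM. The gap test (Dixon's, at its 95% critical value) was run on 80 groups of 40 genes, where chance alone gives about 1 flag in 20 groups. All 3 calls against GT held without the library concerned, and no cause was tested.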

How the results depend on the processing

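None of the 128 called genes that the naming rule chose changed direction under any alternative run, but the excess of falls over rises did: quantile normalization gave 976 falls and 984 rises. For Marf1 the call held in all of them, and for Ppp2cb in all but 1. The counts of 1223 falls and 717 rises stayed within 845 to 1216 falls and 483 to 678 rises when 1 library at a time was left out. They were 1091 and 608 with a replicate block, 1125 and 655 in the 8 libraries alone, 1015 and 618 without a filter on low values, and 1020 and 968 when libraries were rescaled without small RNA genes, a setting added after the data were seen. Rescaling each library to the sum of its tested genes gave 14 falls, 2 rises, 1 fall also called against GTD272 and 0 such rises. Ppp2cb was there at -0.63 with a limma adjusted p of 1. Of the 128 called genes that the naming rule chose, 125 lost their call there, and 0 to 10 in each other setting. Small RNA genes made up 14.99% to 83.9% of a library's FPKM sum over all genes, tested or not. Falls also called against GTD272 numbered 194, and 110 without a filter on low values, 110 without a trend and 107 to 235 leaving out 1 library. Such rises numbered 47, and 101 after quantile normalization, 101 when rescaled without small RNA genes, 25 with a replicate block and 23 to 41 leaving out 1 library. Same-numbered GTWT and GT libraries did not deviate together (correlations of -0.22, 0.21, -0.18 and -0.21), so the block is no pairing. The median change of all tested genes stayed between -0.03 and 0.03 under the scalings. Genes under 5 FPKM were called less often, and the part of depth in this was not tested.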
